A study of Mus musculus with 11 samples.

Results

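Regulatory T cells (Tregs) from visceral adipose tissue (VAT) were compared with Tregs from spleen in mice whose Srebf2 gene was intact. The comparison used 5 of the 11 samples that the labels name and of the 10 that have a column in the table: VAT WT replicates 1, 2 and 3 and spleen WT replicates 2 and 3. Members were chosen by tissue and genotype, not by any measured value. All 5 came from male mice aged 25 weeks of the genotype Foxp3-YFPcre Srebf2-WT/WT, so every library carried the Foxp3-driven YFP-Cre recombinase and none carried floxed Srebf2. Live cells positive for CD3, CD4 and Foxp3 had been sorted from each tissue, and their RNA was sequenced in bulk. Levels are RPKM, which scales a gene's reads to its length and to the library. The KO libraries named further on (3 VAT, 2 spleen) had the same Cre and floxed Srebf2 on both copies, and no library of the WT comparison entered theirs. The labels say neither that replicates were separate mice nor that mice were pooled, so p-values measure only the spread between these samples. They also give no step by which either tissue was taken apart, so the tissue of origin and its preparation cannot be told apart for any gene below.

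Tregs restrain immune responses under the control of the transcription factor Foxp3. Those in visceral fat are known for the nuclear receptor PPARgamma (Pparg), for the receptor of the alarmin IL-33 (Il1rl1, ST2) and for secreted products such as amphiregulin and IL-10, whereas many splenic Tregs keep the homing receptors that let lymphocytes circulate through lymphoid organs. Immediate early genes such as Fos, Jun and Egr1 are transcribed within minutes of a stimulus from transcription factors already in the cell, and their products feed back on the same signals. Heat shock genes encode chaperones that hold and refold proteins, and their stress-induced members are driven by the factor HSF1. Both early and heat shock genes are known to respond to the handling of cells, and early genes also respond to signals through the T cell receptor in the living animal.

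The read depth of the libraries was unknown. The 5 WT libraries summed to 185319 to 210778 RPKM, with 9586 to 9774 genes at 1 RPKM or more. On log2(RPKM + 1) the VAT libraries correlated across genes at 0.967 to 0.972, the spleen libraries at 0.93 and libraries of different tissues at 0.797 to 0.855. The SD of a gene had a median of 0.188 log2 units over the VAT libraries and 0.278 over those of spleen, so spleen WT replicates 2 and 3 stood further apart than any pair of VAT libraries. Of 10198 genes with at least 1 RPKM in at least 2 of the 5 libraries, limma called 830 higher in VAT (8.14%) and 919 lower (9.01%) at a Benjamini-Hochberg adjusted p under 0.05. Single libraries moved these counts: 481 to 585 and 385 to 512 were called when any 1 VAT library was left out. Leaving out a spleen library, in WT or in KO, leaves 1 in that group. The spread then comes from the VAT libraries alone, so counts and calls of such fits below are not like those of the main fit. All VAT libraries lay above both spleen libraries for 18.2% of tested genes and below both for 30.9%, a state that every called gene met. The median log2 difference over all genes was -0.12. Scaling by median ratios moved it up by 0.13, and the share of calls that were higher in VAT then went from 47.5% to 61%. Differences below are VAT minus spleen with the standard error from limma on log2(RPKM + 1), a scale that understates changes of genes with low values. Adjusted p-values are from limma with Benjamini-Hochberg adjustment over all genes. In bulk RNA fewer cells with a transcript and less of it per cell cannot be told apart.

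Foxp3, the gene that defined the sort, was present in every library. It stood at 15.5, 15.6 and 14.6 RPKM in the VAT libraries and at 6.97 and 8.69 RPKM in spleen, a difference of 0.89 ± 0.20 (limma adjusted p = 0.0178). The 2 groups did not overlap, and the two-sided exact permutation test gave p = 0.1, the smallest that 3 against 2 libraries allow. The call was lost without any 1 of the 3 VAT libraries, and Foxp3 shares bases with Ccdc22 in the annotation. Srebf2 stood at 16.6, 15.6 and 30.5 RPKM in VAT and 10.5 and 23.2 RPKM in spleen. These ranges overlapped, and the difference of 0.33 ± 0.37 was not called (limma adjusted p = 0.574, exact permutation p = 0.6).

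**Figure D1:**
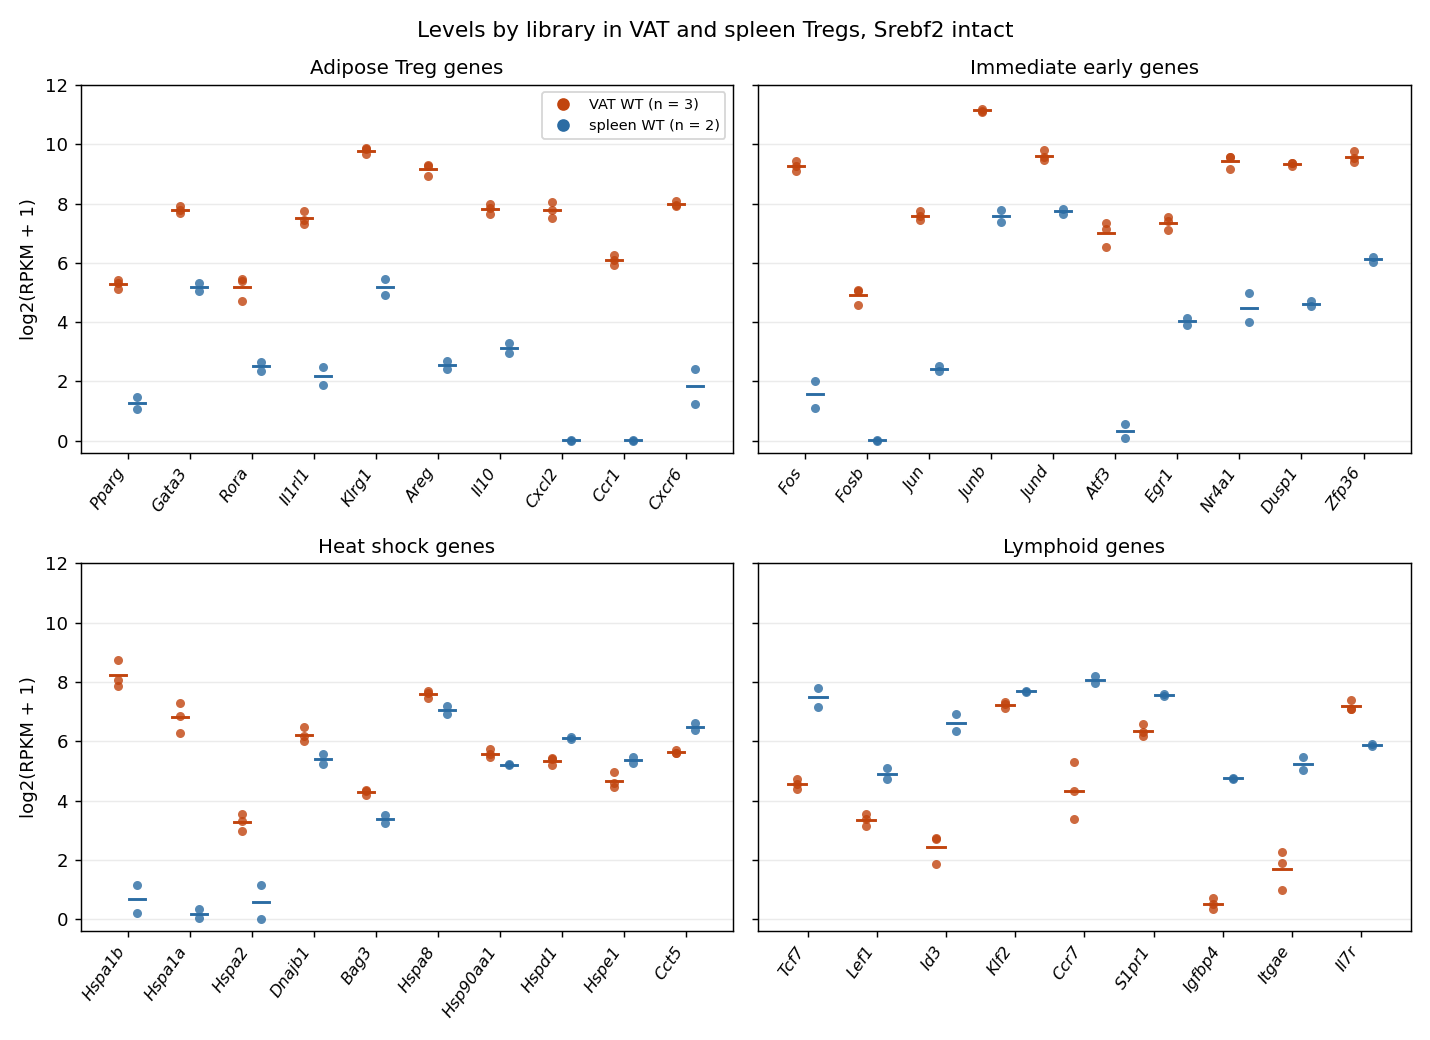
Level of 39 genes in each WT library as log2(RPKM + 1), with VAT (n = 3) in orange, spleen (n = 2) in blue and a bar at each group mean. Adipose Treg and early genes lay higher in VAT, the lymphoid genes other than Il7r lay lower, and of the heat shock genes Hspa1b and Hspa1a stood far apart between tissues while Hspd1, Hspe1 and Cct5 lay lower in VAT.

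The transcription factors that mark adipose Tregs were higher in VAT. Of 17 tested members, 12 rose and none fell, beside 8.14% and 9.01% of all tested genes. Those shares are the background of every count of rises and falls in WT given below. The median difference was 1.41, against -0.12 over all genes. This list, like the others, was drawn up with results of these data known. Pparg (chr6:115360879-115490404; positions of genes are those of RefSeq on GRCm38.p6) stood at 41.5, 38.6 and 33.6 RPKM in the VAT libraries against 1.81 and 1.12 RPKM in spleen, a difference of 3.99 ± 0.22 (limma adjusted p = 9.50e-06). Every VAT library was far above both spleen libraries. Gata3, a regulator of type 2 immunity, stood at 239.8, 203 and 218 RPKM against 32.4 and 38.7 RPKM (2.60 ± 0.18, limma adjusted p = 2.99e-05), so spleen Tregs also carried it at a sizeable level. Rora, an orphan nuclear receptor, rose by 2.69 ± 0.26 and Id2, an inhibitor of E proteins, by 2.54 ± 0.20. Irf4, a factor of effector Tregs, rose by a smaller 1.41 ± 0.21 and did not pass a test against a 2-fold threshold. The rises not given here ran from Ikzf3 (0.85 ± 0.20) to Prdm1 (2.60 ± 0.42), the factor known as Blimp-1. Rbpj, the nuclear partner of Notch, stood at 22.4, 21.4 and 19.1 RPKM against 2.56 and 3.96 RPKM (2.38 ± 0.23). Batf, an AP-1 family partner of IRF4 that adipose Tregs are known to need, did not rise. It stood at 115, 97.9 and 113 RPKM in VAT and 167 and 121 RPKM in spleen, with every VAT library below both spleen libraries, but the difference of -0.38 ± 0.20 was not called (limma adjusted p = 0.208). Among other members without a call, Ahr differed by -0.56 ± 0.32, Hif1a by -0.03 ± 0.19 and Maf by 0.59 ± 0.21.

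Receptors and surface proteins of adipose Tregs were split. Of 21 tested members 9 rose and 3 fell, with a median of 0.43. Il1rl1 (chr1:40404864-40465418) stood at 158, 172 and 216 RPKM in VAT and 2.66 and 4.67 RPKM in spleen (5.32 ± 0.24, limma adjusted p = 2.92e-06). The lowest VAT library thus lay far above the highest spleen library. Klrg1, an inhibitory lectin receptor of differentiated T cells, reached 935, 907 and 808 RPKM in VAT against 43.2 and 29 RPKM in spleen (4.60 ± 0.21), and its mean ranked 6 among 10198 genes in VAT and 1202 in spleen. Cd200r1, an inhibitory receptor, rose by 3.01 ± 0.18, Il18rap, a chain of the IL-18 receptor, by 2.25 ± 0.23, and Cysltr1, a receptor for leukotrienes, by 2.13 ± 0.27. Ctla4, which takes costimulatory ligands off other cells, stood at 321, 347 and 357 RPKM against 108 and 92.2 RPKM (1.76 ± 0.17). Cd69, a retention and activation marker, stood at 345, 282 and 340.5 RPKM against 75.3 and 70.5 RPKM (2.12 ± 0.17). It is itself induced soon after stimulation and could stand in the early lists as well. The members that fell were Cd83 (-2.81 ± 0.41), the decoy receptor Il1r2 (-1.73 ± 0.46) and Tnfrsf9, which encodes 4-1BB (-0.80 ± 0.17). Exceptions to a list's direction and members without a call were partly named after their values were seen, here and elsewhere.

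Secreted and effector genes had the highest share of rises among the tissue lists: 17 of 20 tested members rose and 1 fell, with a median of 2.80. The list named 23 genes, of which Vegfa, Il13 and Arg1 were not tested. Cxcl2, a chemokine that draws neutrophils, gave the largest difference of all genes named by size. It stood at 261, 183 and 218 RPKM in VAT, at 0.024 RPKM in spleen WT replicate 2 and was listed at 0 in replicate 3 (7.76 ± 0.21, limma adjusted p = 6.11e-07). Areg (chr5:91139599-91148432), which encodes the repair factor amphiregulin, stood at 631, 483 and 619 RPKM against 4.31 and 5.43 RPKM (6.62 ± 0.19, limma adjusted p = 7.52e-07). Il10, an anti-inflammatory cytokine, stood at 229, 249.96 and 197 RPKM against 6.77 and 8.84 RPKM (4.69 ± 0.19). The groups were far apart for both, with little spread among the VAT libraries. Il5, a type 2 cytokine, stood at 18.8, 15.3 and 19 RPKM in VAT, at 0.094 RPKM in spleen WT replicate 2 and was listed at 0 in replicate 3 (4.15 ± 0.23). Lgals3, a galectin, rose by 5.25 ± 0.25, Metrnl, a secreted factor known for effects on adipose tissue, by 4.41 ± 0.20, and Il9r by 2.99 ± 0.23. Mmp9, a matrix protease, stood at 129, 217 and 137 RPKM against 0.387 and 4.92 RPKM (5.78 ± 0.52). Its size depended on the spleen library: 4.73 without spleen WT replicate 2 and 6.83 without replicate 3. Penk, the enkephalin precursor, was the member that fell (-2.04 ± 0.54), with VAT values of 50.8, 19.7 and 9.51 RPKM against 83.2 and 100.1 RPKM.

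Receptors for entry into tissue rose in 11 of 20 tested members and fell in 2, with a median of 1.00, and 3 of the 23 listed were not tested. Of the tested members 3, Ccr1 among them, stood below 1 RPKM in both spleen libraries and so had to be higher in VAT to be tested. Ccr1 stood at 75.7, 67.9 and 59.8 RPKM in VAT, at 0.026 RPKM in spleen WT replicate 2 and was listed at 0 in replicate 3 (6.08 ± 0.20, limma adjusted p = 9.21e-07). Cxcr6, the receptor of CXCL16, stood at 249, 271 and 241 RPKM against 1.38 and 4.33 RPKM (6.16 ± 0.31), although its span holds bases of Fyco1 as well. Ccr2 and Ccr3, further receptors for inflammatory chemokines, rose by 4.22 ± 0.25 and 4.13 ± 0.37. Leaving out spleen WT replicate 2 gave 3.44 for Ccr3, and leaving out replicate 3 gave 4.82. Cxcr4, the receptor of CXCL12, rose by 1.90 ± 0.22 and the integrin chain Itgav by 2.21 ± 0.33. The integrin chain Itgae (CD103), which binds E-cadherin on epithelia, went the other way, at 2.68, 0.981 and 3.77 RPKM in VAT and 43.5 and 31.6 RPKM in spleen (-3.54 ± 0.36, limma adjusted p = 2.90e-04). The second fall was Gpr183, a receptor that guides cells within lymphoid tissue (-1.69 ± 0.31). Cxcr3, the receptor of interferon-induced chemokines, was not called (-0.85 ± 0.35, limma adjusted p = 0.127).

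Among genes of lipid uptake and storage, 6 of 16 tested members rose, none fell and the median was 0.20, or 0.48 without VAT WT replicate 2 and 1.01 among members with a mean of at least 5 RPKM. Another 6 of the 22 listed were not tested, Cd36, Lpl and Fabp4 among them. The rises were those of lipid droplets and fatty acid handling. Plin2, which coats lipid droplets, stood at 134, 148 and 140.4 RPKM against 5.29 and 5.56 RPKM (4.46 ± 0.17, limma adjusted p = 1.31e-06). Hilpda, an inhibitor of droplet lipolysis, stood at 235, 233 and 309 RPKM against 10.7 and 10.8 RPKM (4.45 ± 0.19). The triglyceride-forming enzyme Dgat1 rose by 3.13 ± 0.21, Cpt1a, which brings fatty acids into mitochondria, by 1.91 ± 0.21, Lpcat2 by 4.05 ± 0.31 and the carrier Fabp5 by 0.93 ± 0.23, a call lost without any 1 VAT library. Of 14 adipocyte markers 3 had a row (Acacb, Lipe, Dgat2), and their levels together came to 3.72 to 7.9 RPKM in VAT and 4.73 to 5.92 RPKM in spleen.

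Type 1 and cytotoxic genes rose in 7 of 11 tested members, with a median of 1.27 and unequal VAT libraries. Of 15 listed members 11 were tested. Ifng, which encodes interferon gamma, stood at 13.6, 51.2 and 24 RPKM in VAT and 1.51 and 2.93 RPKM in spleen (3.09 ± 0.47, limma adjusted p = 0.00272). Tbx21, which encodes T-bet, stood at 29.2, 77.9 and 23.9 RPKM against 12.2 and 12.1 RPKM (1.57 ± 0.43), the granule protease Gzmb at 19.9, 73.4 and 29.2 against 9.42 and 7.27 (1.96 ± 0.45), and Nkg7 at 77.9, 179 and 56.4 against 41.4 and 25.2 (1.49 ± 0.43). VAT WT replicate 2 was the highest library for all 4. That library also had the highest sum over 12 B cell markers with a row, 235.3 RPKM against 104.5 and 65.3 RPKM in the other VAT libraries and 106.1 and 142.3 RPKM in spleen. Cd74 was the highest of these markers, at 105 RPKM in VAT WT replicate 2. The part of other cells in these values was not tested. The calls of Tbx21, Nkg7 and Gzmb were lost with weights per library, and each was lost in other settings as well.

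Genes of naive and recirculating T cells fell in 19 of 27 tested members, and only Il7r, the IL-7 receptor, rose (1.32 ± 0.18), beside 9.01% and 8.14% of all tested genes. The median was -1.74. Bach2, Igfbp4 and Actn1 were below 1 RPKM in all VAT libraries and passed the filter on low values through spleen, so these 3 had to be lower in VAT to be tested. Ccr7 (chr11:99144199-99155077), the chemokine receptor that leads cells into lymph nodes, stood at 19.2, 38.3 and 9.47 RPKM in VAT and 293 and 247 RPKM in spleen (-3.73 ± 0.45, limma adjusted p = 7.76e-04). The VAT libraries differed among themselves, replicate 3 being lowest, yet none came near a spleen library. Tcf7, which encodes TCF-1, stood at 25.6, 19.8 and 22.5 RPKM against 143 and 220.03 RPKM (-2.92 ± 0.22), and its partner in naive T cells Lef1 at 9.38, 7.8 and 10.7 against 25.4 and 32.9 (-1.55 ± 0.22). Id3, an inhibitor of E proteins, stood at 5.54, 2.66 and 5.72 against 121 and 79.7 (-4.19 ± 0.31), the reverse of its relative Id2. Igfbp4, a binding protein of insulin-like growth factors, fell to 0.638, 0.435 and 0.258 RPKM from 25.7 and 26.1 RPKM (-4.23 ± 0.24). Klf2, a factor of T cell trafficking, stood at 152, 138 and 160.2 RPKM against 206 and 203 RPKM and was not called (-0.44 ± 0.16, limma adjusted p = 0.0995).

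Core Treg genes did not move in 1 direction: 6 of 21 tested members rose, 5 fell and the median was 0.02, or -0.30 without spleen WT replicate 2. Leaving out any 1 VAT library left 2 rises, and neither Foxp3 nor Il2ra was then called. Beside Foxp3, Il2ra, the high-affinity IL-2 receptor chain, stood at 144, 153 and 167 RPKM against 56.4 and 96.3 RPKM (1.05 ± 0.23), and Socs2 rose by 1.58 ± 0.27. Izumo1r, the folate receptor 4 of resting Tregs, stood at 21.5, 31.9 and 16.4 RPKM against 336 and 215 RPKM (-3.52 ± 0.29), and Gpr83 at 1.21, 1.48 and 0.564 against 21.7 and 25 (-3.57 ± 0.27). No VAT library came near a spleen library for either gene. Nt5e, which encodes the adenosine-forming enzyme CD73, fell by 2.28 ± 0.30 on the log2 scale, Lrrc32, which anchors latent TGF-beta, by 2.29 ± 0.25 and the inhibitory receptor Lag3 by 1.73 ± 0.32.

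The largest falls among all genes by the naming rule were led by Dtx1, a Notch-pathway ubiquitin ligase, at 0.927, 1.68 and 0.378 RPKM in VAT and 44.9 and 52.6 RPKM in spleen (-4.69 ± 0.30, limma adjusted p = 2.12e-05). Ctss, a lysosomal protease also counted here as a myeloid marker, stood at 12.9, 13.9 and 11.8 RPKM against 235 and 176 RPKM (-3.89 ± 0.19). Lta, which encodes lymphotoxin alpha, stood at 4.38, 2.77 and 3.99 against 80.2 and 68.8 (-4.01 ± 0.23), Nsg2 at 0.201, 0.271 and 1.11 against 21.6 and 30.2 (-4.17 ± 0.31) and Rflnb at 1.14, 0.611 and 1.8 against 28.6 and 23.4 (-3.66 ± 0.29). Sostdc1, a secreted inhibitor of BMP and Wnt signals, was listed at 0 in VAT WT replicates 2 and 3 and stood at 16.5 and 14 RPKM in spleen (-4.01 ± 0.24). Below 1 RPKM in every VAT library, Sostdc1 passed the filter on low values through spleen and so had to be lower in VAT to be tested. Ces2c (-4.52 ± 0.33) and Apol7e (-4.22 ± 0.31) belong to families of near-identical genes, so their values are uncertain.

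The 12 largest rises mixed the classes. The lists of early genes held 2 of them (Fos, Atf3), the heat shock lists 2 (Hspa1b, Hspa1a) and the tissue lists 5 (Cxcl2, Areg, Cxcr6, Ccr1, Mmp9). The remaining 3 stood in no list: Ltb4r1, the leukotriene B4 receptor (509, 487 and 423 RPKM against 0.783 and 1.99 RPKM, 7.68 ± 0.24), Anxa1, which encodes annexin A1 (272, 246 and 220.3 against 4.53 and 2.31, 5.85 ± 0.24), and AA467197 (117, 86.2 and 79 against 1.12 and 0.219, 5.87 ± 0.28). Of the 12, Cxcl2, Atf3, Hspa1a and Ccr1 stood below 1 RPKM in both spleen WT libraries. They passed the filter on low values through VAT and so had to be higher there to be tested. In all, 309 of the 10198 tested genes stood below 1 RPKM in both spleen WT libraries. Among the 100 largest rises, 21 were in early lists, 2 in heat shock lists, 21 in tissue lists and 55 in none of the lists. Among the 100 largest falls, none was in an early or heat shock list and 18 were in tissue lists. Over all 830 genes called higher, 46 were early genes, 7 heat shock genes and 62 tissue list members, so the early and heat shock lists together held 53 of the calls. Of the 10198 genes tested, the early lists held 65, the heat shock lists 53 and the tissue lists 141. The shares called higher were 70.8%, 13.2% and 44% of these members, beside 8.14% of all tested genes. The heat shock share was thus near that of all genes. Nfil3, a transcription factor in both the adipose and the early lists, was the gene these classes shared (1.43 ± 0.20). Without it the 3 adipose Treg lists had 37 rises and 4 falls among 57 tested members, and with it 38 and 4 among 58.

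**Figure D2:**
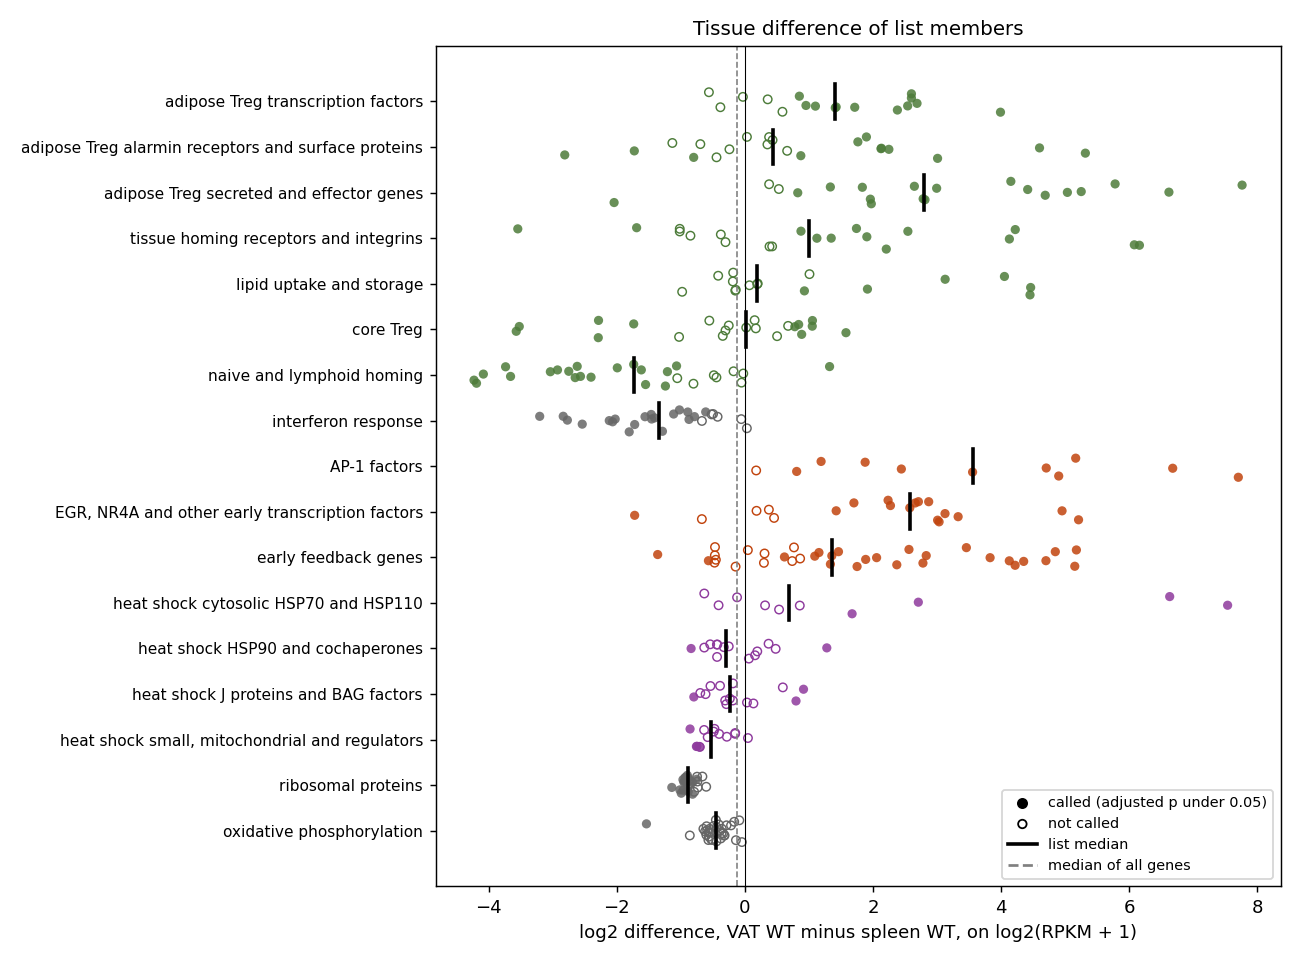
Difference between VAT WT and spleen WT (log2, on the log2(RPKM + 1) scale) of each tested member of 17 lists. Green marks tissue lists, orange-red early, purple heat shock and grey other lists. The AP-1 median of 3.55 and the secreted and effector median of 2.80 lie furthest right, while 3 of the 4 heat shock lists have medians below 0.

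Immediate early genes were high in VAT Tregs as a class. Of 65 tested members 46 rose and 3 fell, beside 8.14% of all tested genes called higher, and the median was 2.06. They took 6.16% to 7.27% of the summed RPKM of each VAT WT library and 1.22% to 1.33% in spleen. The 3 adipose Treg lists together took 3.52% to 3.7% and 0.894% to 0.94%. The filter on low values was passed by 6 early members that stood below 1 RPKM in both spleen libraries, so these had to be higher in VAT to be tested, and 4 members of the adipose Treg lists did likewise.

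The AP-1 factors, dimers of Fos, Jun and ATF proteins, rose in 10 of 11 tested members (median 3.55), with 13 listed. Only Mafk, a small Maf protein, was not called (0.18). Fos (chr12:85473890-85477274) stood at 691, 549.6 and 611 RPKM in VAT and at 3.05 and 1.16 RPKM in spleen (7.70 ± 0.27, limma adjusted p = 9.21e-07). Its mean ranked 15 among 10198 genes in VAT and 8665 in spleen. Jun (chr4:95049036-95052222) stood at 212, 192 and 174 RPKM against 4.08 and 4.7 RPKM (5.16 ± 0.18, limma adjusted p = 9.21e-07). Junb stood at 2356, 2162 and 2247 RPKM against 219.5 and 166 RPKM (3.55 ± 0.19), and its mean ranked 1 in VAT and 95 in spleen. Jund stood at 890.3, 709.6 and 757 RPKM against 225 and 199.8 RPKM (1.88 ± 0.18). Junb and Jund were thus higher in each spleen library than Fos and Jun by a wide margin. Atf3, a stress-induced member, stood at 139, 91.5 and 161 RPKM against 0.057 and 0.482 RPKM (6.68 ± 0.28), Fosb at 33.2, 22.9 and 32.4 against 0.006 and 0.013 (4.90 ± 0.24) and Fosl2 at 35.6, 25.8 and 37.8 against 0.188 and 0.403 (4.70 ± 0.24).

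Other early transcription factors rose in 14 of 19 tested members and fell in 1, with a median of 2.57 and 22 listed. Egr1 stood at 184, 137 and 170.3 RPKM against 13.9 and 16.8 RPKM (3.33 ± 0.20, limma adjusted p = 1.29e-05). Nr4a1 (Nur77), which reports signals through the T cell receptor, stood at 767, 572 and 762 RPKM against 15.1 and 30.3 RPKM (4.95 ± 0.28). Ier3, a survival factor of this class, stood at 153, 88.6 and 65.5 RPKM against 0.643 and 3.2 RPKM (5.21 ± 0.44). Leaving out spleen WT replicate 2 gave 4.53, and leaving out replicate 3 gave 5.89. Klf6 rose by 2.57 ± 0.16, Csrnp1 by 3.03 ± 0.23, Crem, a cAMP-responsive factor, by 2.71 ± 0.22 and Cebpb by 2.27 ± 0.19. Egr2, a relative of Egr1 that T cells also induce through their receptor, fell: it stood at 3.57, 2.85 and 7.05 RPKM in VAT and 12.2 and 21.3 RPKM in spleen (-1.72 ± 0.36, limma adjusted p = 0.0127). Egr1 and Egr2 therefore had opposite signs in the same libraries, and the groups did not overlap for either. Myc was not called (0.37).

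Feedback genes, whose products end the early response, rose in 22 of 35 tested members of 36 listed and fell in 2, with a median of 1.36. Dusp1, a phosphatase of MAP kinases, stood at 652, 608 and 657 RPKM against 22.1 and 25.2 RPKM (4.70 ± 0.17, limma adjusted p = 9.21e-07). Gadd45b stood at 667, 485 and 591 RPKM against 14 and 16 RPKM (5.17 ± 0.19), and Zfp36, which encodes the mRNA-destabilizing protein tristetraprolin, at 869, 681 and 744 against 64.9 and 72 (3.46 ± 0.18). For all 3 genes the lowest VAT library was several times above the highest spleen library. Ppp1r15a, a phosphatase subunit that reverses the block of translation, rose by 4.85 ± 0.17, although its span overlaps Tulp2. Rgs2 rose by 5.15 ± 0.22, Tnfaip3, the brake on NF-kappaB known as A20, by 4.35 ± 0.25 and Dusp5 by 3.83 ± 0.22. The falls were Socs3, an inhibitor of cytokine signalling (24.9, 32.8 and 39.5 RPKM against 70.1 and 99.2 RPKM, -1.36 ± 0.24), and the phosphatase Dusp2 (-0.57 ± 0.16).

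Heat shock genes did not rise as a class. Of 53 tested members 7 rose and 6 fell, beside 8.14% and 9.01% of all tested genes, and the median was -0.28 against -0.12 over all genes. The count of rises was 4 without VAT WT replicate 1, and that of falls 15 without spleen WT replicate 3 and 0 or 1 without any 1 VAT library. Of the 7 rises 4 were in the list of cytosolic HSP70 and HSP110 genes, where 4 of 10 tested members rose, none fell and the median was 0.70. Hspa1b (chr17:34956429-34959238) stood at 230.4, 423 and 268 RPKM in VAT and at 0.156 and 1.23 RPKM in spleen (7.54 ± 0.33, limma adjusted p = 2.92e-06). Hspa1a (chr17:34969359-34972156) stood at 77.1, 157 and 115 RPKM against 0.025 and 0.259 RPKM (6.63 ± 0.29, limma adjusted p = 2.92e-06). These genes encode nearly the same protein, and reads may have been split between them. Both were at or below 1.23 RPKM in every spleen WT library and at 77.1 RPKM or more in every VAT library. The related Hspa1l (2.46, 4.55 and 2.88 RPKM against 0 and 0.741 RPKM, 1.67 ± 0.34) and Hspa2 (10.8, 6.93 and 9.01 against 0.014 and 1.22, 2.71 ± 0.36) rose from low levels. Hspa1a and Hspa1l were the 2 heat shock members below 1 RPKM in both spleen libraries. They passed the filter on low values through VAT and so had to be higher there to be tested, and both are among the 4 rises of this list. Hspa8, the constitutive HSP70 of every cell, stood at 175, 205 and 198 RPKM against 121 and 145 RPKM and was not called (0.53 ± 0.18, limma adjusted p = 0.0701).

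Among J proteins and BAG factors, partners of HSP70, 2 of 15 tested members rose, 1 fell (Dnaja3, -0.80 ± 0.19) and the median was -0.23. These shares, 13.3% and 6.67%, were near the 8.14% and 9.01% of all tested genes. Dnajb1, its J-domain cochaperone, stood at 70.8, 88 and 62.9 RPKM against 36.8 and 47.1 RPKM (0.80 ± 0.21, limma adjusted p = 0.0312), a call lost with weights per library and without spleen WT replicate 2, among other settings. Bag3, a nucleotide exchange factor, stood at 19.1, 19.3 and 17.4 RPKM against 8.54 and 10.3 RPKM (0.92 ± 0.19). The calls of Dnajb1, Bag3 and Dnaja3 were lost without any 1 VAT library. Hsph1 (HSP110), a stress-induced member, stood at 5.15, 7.6 and 8.24 RPKM against 7.1 and 12.5 RPKM, with overlapping groups and no call (-0.41 ± 0.29, limma adjusted p = 0.36). The stress-induced HSP90 gene Hsp90aa1 stood at 43.3, 52.1 and 46 RPKM against 36 and 36.3 RPKM and was not called (0.37 ± 0.17, limma adjusted p = 0.174). Among HSP90 and its cochaperones 1 of 14 tested members rose and 1 fell, 7.14% each way beside 8.14% and 9.01% of all tested genes, with a median of -0.29. The rise was Fkbp5 (1.28 ± 0.25), an immunophilin that glucocorticoids are known to induce, and the fall Cacybp (-0.84 ± 0.19). The Fkbp5 call was lost without VAT WT replicate 1, and the Cacybp call without replicate 2, without replicate 3 and in 1 model with 4 groups.

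In the list of small heat shock proteins, mitochondrial chaperones, chaperonin subunits and regulators, none of 14 tested members of 18 listed rose, 4 fell (28.6%, beside 9.01% of all tested genes) and the median was -0.53. Hspd1 (HSP60) stood at 35.8, 42.4 and 41.3 RPKM against 69.5 and 66.3 RPKM (-0.76 ± 0.17, limma adjusted p = 0.0187) and the chaperonin subunit Cct5 at 47.9, 51.5 and 47.4 against 96.9 and 82.3 (-0.86 ± 0.17). Cct2 (-0.75 ± 0.17) and Cct4 (-0.70 ± 0.19) were called as well but not after median-ratio scaling. Hspe1, the partner of HSP60, had a difference of -0.71 ± 0.21 and was not called (limma adjusted p = 0.0505). The calls of the 4 that fell were lost without VAT WT replicate 1 and without replicate 3. Genes of the unfolded protein response in the endoplasmic reticulum, a separate stress programme, gave 1 rise and 1 fall among 20 tested members, 5% each way. The rise was the sensor Atf6 (1.45 ± 0.24), and the median was -0.13, or 0.03 after median-ratio scaling.

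Sequences upstream of 4 genes are shown because they set the called HSP70 genes beside an uncalled heat shock gene and an early gene. They are RefSeq promoter windows on GRCm38.p6 (the build mm10), given from 250 bases before the annotated start up to the start, 5′ to 3′ on the gene's strand, all on the minus strand. Capitals mark the heat shock element core in the chaperone genes and the cAMP response element in Dusp1. The genes were chosen after their values were seen.
Hspa1b, chr17:34959239-34959488: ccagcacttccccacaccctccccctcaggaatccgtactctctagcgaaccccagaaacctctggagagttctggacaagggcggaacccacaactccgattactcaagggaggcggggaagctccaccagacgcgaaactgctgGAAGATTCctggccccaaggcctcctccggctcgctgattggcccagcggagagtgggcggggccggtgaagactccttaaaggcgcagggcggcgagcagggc
Hspa1a, chr17:34972157-34972406: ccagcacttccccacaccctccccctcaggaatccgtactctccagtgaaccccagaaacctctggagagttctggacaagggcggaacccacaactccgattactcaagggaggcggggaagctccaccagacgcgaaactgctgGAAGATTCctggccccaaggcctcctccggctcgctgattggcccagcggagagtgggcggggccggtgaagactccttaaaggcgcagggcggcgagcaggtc
Hsph1, chr5:149636337-149636586: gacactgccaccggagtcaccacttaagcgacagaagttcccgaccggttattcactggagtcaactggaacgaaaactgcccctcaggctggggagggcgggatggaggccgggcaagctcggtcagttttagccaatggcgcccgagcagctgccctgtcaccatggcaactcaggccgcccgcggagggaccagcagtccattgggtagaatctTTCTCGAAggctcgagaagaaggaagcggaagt
Dusp1, chr17:26508473-26508722: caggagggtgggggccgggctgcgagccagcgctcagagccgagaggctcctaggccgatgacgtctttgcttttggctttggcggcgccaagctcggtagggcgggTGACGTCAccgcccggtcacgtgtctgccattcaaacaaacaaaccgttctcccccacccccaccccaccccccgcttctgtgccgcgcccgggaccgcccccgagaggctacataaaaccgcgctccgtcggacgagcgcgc

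The windows of Hspa1b and Hspa1a were equal at 247 of 250 bases, and each held 1 heat shock element core that began 104 bases before the start. The Hsph1 bases shown held 1 core that began 33 bases before the start, although Hsph1 was not called between VAT and spleen. With the 50 bases after the start, this window held 3 cores. Hsph1 has a further annotated start, where the upstream core began 54 bases before it. The Dusp1 window held 1 cAMP response element that began 143 bases before the start. Windows of other genes were searched and are not shown. The windows of Dnajb1, called higher, held no heat shock core. The window of Hspe1, not called, and a window of Hspd1, called lower, held 3 each. These windows overlap on opposite strands, and the 3 cores, which overlap each other, are the same bases counted for both genes. The windows of the early genes Fos, Jun, Atf3 and Nr4a1, all called higher, held no exact match to TGACGTCA, the only form of the cAMP response element searched. Shorter or variant forms of that element were not searched, so their absence was not shown. Over windows of 300 bases (250 before and 50 after the start) the searched letters were GAANNTTC or TTCNNGAA for the heat shock core, TGACGTCA for the cAMP response element and TGANTCA for the AP-1 site, on both strands. The heat shock core was in 3 of 8 windows of heat shock members called higher (37.5%) and in 15 of 46 windows of those not called higher (32.6%), against 15.1% of all 32851 windows and 11.9% of those of tested genes. The cAMP response element was in 5 of 61 windows of early members called higher (8.2%), against 1.79% of all windows and 3.27% of those of tested genes. The AP-1 site was in 3 of those 61 windows (4.92%), against 7.81% and 4.68%. Some genes have several windows that overlap, and windows of neighbouring genes can overlap as well. A match is a description of letters and not of a bound site.

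Early and heat shock genes parted in some libraries. Among VAT WT libraries replicate 2 was the lowest for 32 of the 46 early genes called higher (69.6%, against 42.8% of all genes called higher), Fos among them. Hspa1b and Hspa1a were highest in that library. The clearest separation came from spleen KO replicate 3, which took no part in the WT comparison. There Hspa1b stood at 82.3 RPKM, Hspa1a at 26, Dnajb1 at 208, Hsph1 at 67.3 and Hspd1 at 176 RPKM. In spleen KO replicate 2 the same genes stood at 5.57, 2.29, 57, 12.4 and 69.9 RPKM. Dnajb1, Hsph1 and Hspd1 were thus higher in spleen KO replicate 3 than in any of the 6 VAT libraries, and 41 of 53 heat shock members were. The same share over all tested genes was not computed, so how far this count stands from that of all genes is unknown. Genes lower in VAT were common: all VAT WT libraries lay below both spleen WT libraries for 30.9% of tested genes. That share concerns other libraries and is no background for this count. Of the 53, 32 were higher in spleen KO replicate 3 than in the other 9 libraries, spleen included, again without a share over all genes. Its early genes stayed at the level of spleen: Fos stood at 1.93 RPKM and Jun at 4.86 RPKM. Over all 65 tested early members the mean log2(RPKM + 1) was 3.73 there. It was 3.70 to 3.82 in the other spleen libraries and 5.80 to 6.06 in the VAT libraries. Of the 65, 7 were higher there than in all 6 VAT libraries. Of the 46 early genes called higher in the WT comparison, 45 were lower there than in every VAT library. That count leans this way because the 46 were picked as higher in VAT than in spleen. The heat shock lists took 2% of summed RPKM in spleen KO replicate 3, 0.953% to 1.12% in the VAT WT libraries and 0.878% to 0.981% in spleen WT. The cause of the high chaperone levels in that spleen library was not tested.

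**Figure D3:**
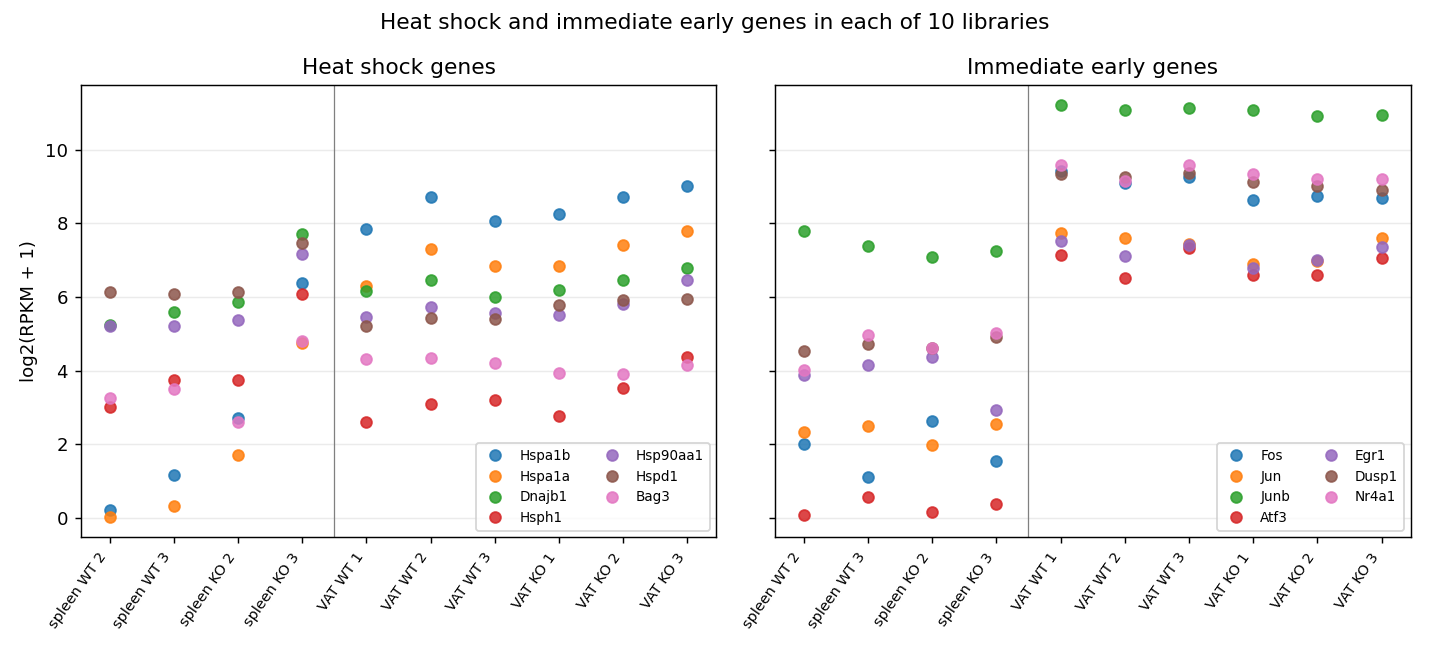
Level of 7 heat shock genes (left) and 7 early genes (right) as log2(RPKM + 1) in each of 10 libraries, spleen left and VAT right of the line. Spleen KO replicate 3 has raised heat shock genes, with Dnajb1 at 208 RPKM, while its Fos and Jun stay with the other spleen libraries at 1.93 and 4.86 RPKM.

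The same tissue contrast was fitted in the 5 KO libraries, which share no library with the WT comparison. It called 982 genes higher in VAT (9.63%) and 1126 lower (11%), the latter 509 without spleen KO replicate 3, 588 without spleen KO replicate 2 and 743 without VAT KO replicate 1. Of the 830 genes called higher in WT, 637 were called higher in KO (76.7% of the WT calls and 64.9% of the KO calls). Of the 919 called lower, 583 were called lower in KO (63.4% and 51.8%). The adipose Treg lists had 42 rises and 1 fall among 58 tested members, the early lists 52 rises and 4 falls among 65, and the naive list 22 falls and 1 rise among 27. Pparg differed by 3.84 ± 0.19 in KO, Il1rl1 by 4.21 ± 0.14, Areg by 6.82 ± 0.20, Fos by 6.60 ± 0.25, Jun by 4.90 ± 0.23 and Ccr7 by -2.02 ± 0.38. Pparg stood at 25.4, 22.6 and 25.8 RPKM in VAT KO and 0.596 and 1 RPKM in spleen KO, and Fos at 400.5, 428 and 412 against 5.21 and 1.93 RPKM.

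Heat shock results in KO depended on spleen KO replicate 3. The fit called 5 members higher and 14 lower of 53, beside 9.63% and 11% of all tested genes in KO, with a median of -0.45. Without that library the median was -0.20, and without spleen KO replicate 2 it was -0.77. Without VAT KO replicate 1 or 2 there were 4 called lower. Hspa1b differed by 4.12 ± 0.78 in KO and by 5.95 without spleen KO replicate 3, and Hspa1a by 4.11 ± 0.67 and 5.63. Dnajb1, called higher in WT, differed by -0.30 ± 0.41 in KO, or 0.62 without spleen KO replicate 3, and was not called. Whether the tissue difference depended on genotype was tested with an interaction term in limma over all 10 libraries. No gene of 10198 was called (0%), the smallest adjusted p was 0.307, and 724 genes had an unadjusted p under 0.05. Without spleen KO replicate 3 these values were 0 genes, 0.751 and 486 genes. For Hspa1b the interaction was -3.42 ± 1.04 with a limma adjusted p of 0.589, and for Fos it was -1.10 ± 0.41 with 0.645.

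**Figure D4:**
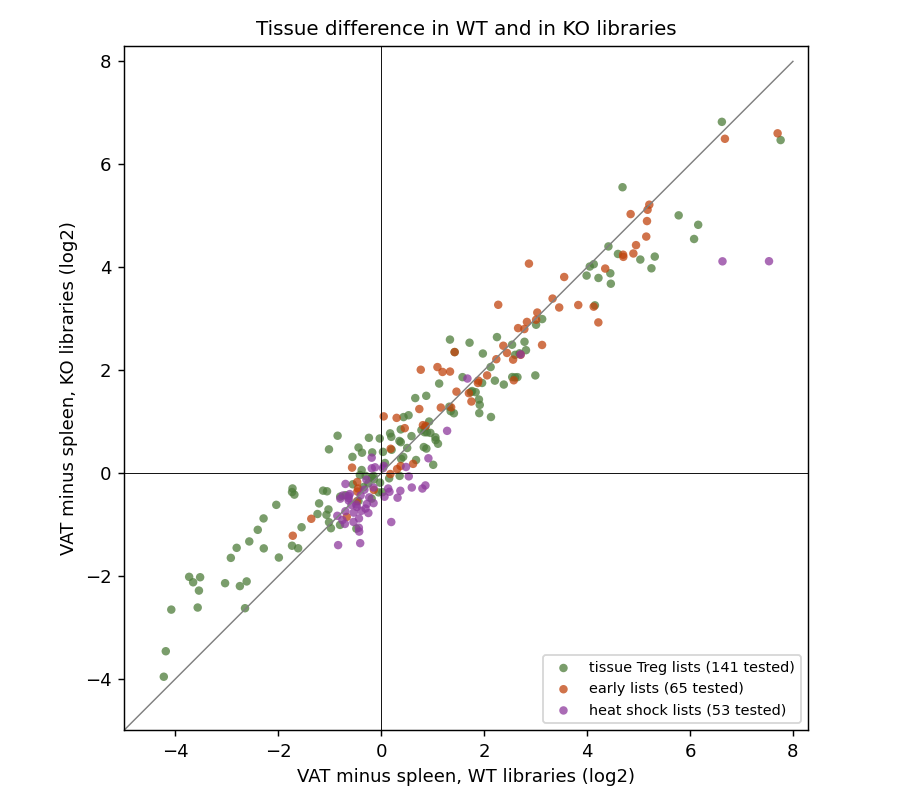
Difference between VAT and spleen (log2, on the log2(RPKM + 1) scale) in WT libraries (horizontal) and KO libraries (vertical) for tested members of the tissue (green), early (orange-red) and heat shock (purple) lists, with the line of equal difference in grey. Hspa1b and Hspa1a, the purple points at 7.54 and 6.63, lie furthest below the line.

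Markers of the sorted cells and of other cell types were summed in each library. T cell and CD4 markers, 11 of 12 with a row, came to 1208 to 1289 RPKM together in VAT and to 1502 and 1853 RPKM in spleen. Cd3d stood at 145, 151 and 124 RPKM against 384 and 211 RPKM (-1.02 ± 0.25). That call was lost without any 1 VAT library, and the difference ran from -1.45 to -0.60 as single libraries were left out. Of 22 myeloid markers 7 had a row, with a total of 77.9 to 95.9 RPKM in VAT and of 301 and 216 RPKM in spleen, nearly all of it Ctss and Cst3. The markers did not share 1 direction: of 5 tested, 2 were called lower in VAT, Ctss among them, and 1 higher (Xcr1, 1.89). Cst3 stood at 77.4, 73.5 and 62.5 RPKM in VAT against 58 and 35.6 RPKM and was not called (0.63 ± 0.23, limma adjusted p = 0.0966). The macrophage markers Csf1r and Adgre1 were below 1 RPKM in every VAT library. Of 11 neutrophil markers and 10 red cell and platelet markers none had a row. Of 15 stromal and endothelial markers 2 had a row (Pecam1, Vwf), with a total of 4.8 to 7.63 RPKM in VAT and of 17 and 31.6 RPKM in spleen. Of 9 markers of type 2 innate lymphoid and mast cells 4 had a row, with a total of 16.8 to 22.2 RPKM in VAT against 5.99 and 3.06 RPKM in spleen. Most of that VAT sum was Il5, while Cpa3 was at 0.233 RPKM or less in VAT. The part of such cells in Il5 was not tested. Cd8a and Cd8b1, the only markers with a row of 11 for CD8, NK and gamma-delta T cells, had a total of 4.93 to 18.4 RPKM in VAT and of 20.03 and 11.1 RPKM in spleen. In the annotation the spans of Tcf7, Itgae, Lpcat2, Hspd1 and Atf6 overlap those of Skp1, Haspin, Capns2, Hspe1 and Gm29733, and libraries that keep no strand cannot tell such reads apart.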

How the data were processed

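Tregs sorted from VAT and spleen had been sequenced in bulk, with SMART-seq v4 and Nextera XT libraries that keep no strand, so overlapping genes cannot be told apart. The deposited values are RPKM per gene for 10992 genes, made by the authors and named so per the file headers. STAR and mm10 are named per the submitters' processing notes. The sources used here do not give the read counter, gene models, RPKM denominator or the rule that left 10992 genes, and depth is unknown. Of 11 labelled samples 10 had a column. The remaining one, a spleen KO sample, was not analysed here. In addition, 1 column headed as a spleen WT library matched no labelled sample and was not used, so spleen WT rests on 2 libraries. Of the symbols, 15 had turned into dates and were restored by Entrez ID.

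Genes with at least 1 RPKM in at least 2 of the 5 WT libraries (10198) were compared as log2(RPKM + 1) with limma 3.58.1 in R 4.3.3 (trend on, robust off), with Benjamini-Hochberg adjustment and a call at an adjusted p under 0.05. The residual degrees of freedom were 3 and the prior ones 5.69. Replicates carry no pairing in the labels, so no block was used. The KO libraries were fitted alone on the same genes, and the interaction came from a fit with 4 group means. The code was checked on simulated data. Foxp3 and Srebf2 also had a two-sided exact permutation test.

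Members and lists were chosen with earlier results of these data known, and a list is described by its counts and median alone. Named genes were, by size of the difference, 12 called higher and 12 called lower, each with groups that did not overlap and with 5 RPKM or more as the mean of its higher tissue. The rule added up to 8 members of each list by smallest p with fixed lead members, Foxp3, Srebf2 and the highest marker genes. Others were named after their values were seen. Alternatives covered the pseudocount, the filter, scaling, weights per library, a 2-fold threshold, the model, the block and leaving out each library. Those that left out a KO library were added after seeing the data. Promoter windows came from RefSeq on GRCm38.p6.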

Additional observations from a re-analysis of the deposited data

How the results depend on the processing

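A test against a 2-fold threshold gave 208 genes higher and 97 lower, 23 rises in the adipose Treg lists, 12 falls in the naive list, 4 in the interferon list and none among ribosomal proteins, and for heat shock genes 3 rises and 0 falls. No core Treg gene rose by that test. One model with 4 groups gave 1596 genes lower, 10 heat shock and 25 ribosomal falls, and 705 genes lower in KO. Weights per library gave 580 genes lower and 13 interferon falls. Ribosomal falls numbered 25 after quantile normalization and 4 after median-ratio scaling. Leaving out each library in turn gave 481 to 1572 genes higher, 385 to 2020 lower, 4 to 10 heat shock rises and 0 to 15 falls, 13 to 20 interferon falls, 0 to 27 ribosomal falls and 2 to 7 core Treg rises. In KO it gave 509 to 1175 genes lower and 1 to 28 heat shock falls. Where a spleen library was left out, 1 remained in its group and the spread came from the VAT libraries alone, which by itself changes such counts. The cause of the other shifts was not tested. Against tested genes alone the promoter shares were 11.9% for the heat shock core, 3.27% for the cAMP response element and 4.68% for the AP-1 site.

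With the replicate number as a block over replicates shared by both tissues, 873 genes were higher and 1053 lower, 1564 of them called without the block as well, and 26 ribosomal falls were called. Deviations of same-numbered libraries correlated at 0.092 and 0.189, and those of VAT WT replicate 1 and spleen WT replicate 2 at 0.085. With 2 spleen libraries each value has its exact negative with the other spleen library, so these values cannot show a pairing. The labels do not pair the samples. Of 216 named genes 141 were called, and 85 of these were called in every setting. Over 3433 gene and setting values, none reversed a called direction, 189 lost a call and 101 gained one. The count of early rises stayed within 1.5 times of 46 in every setting run, and that of KO early rises within 1.5 times of 52. Unknown depth limits what can be said of genes near 1 RPKM, and 3 against 2 libraries limit every test.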

Other observations

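Interferon response genes lay lower in VAT Tregs. Of 26 tested members 20 fell and none rose, beside 9.01% of all tested genes called lower, with a median of -1.35, and 13 fell without VAT WT replicate 3. Irf9, a factor that carries interferon signals to the nucleus, stood at 7.38, 9.4 and 6.77 RPKM in VAT and 29.6 and 29.8 RPKM in spleen (-1.81 ± 0.21). The feedback protease Usp18 differed by -2.84 ± 0.24, and the antiviral gene Oas1a by -2.06 ± 0.25. Rtp4 fell the most of these (-3.20 ± 0.39), although its span overlaps Masp1. The groups did not overlap for any gene called. Ifng, whose product also induces such genes, lay higher in VAT (3.09 ± 0.47). In the KO libraries 19 of the 26 fell and none rose, beside 11% of all tested genes called lower and 9.63% called higher there. The cholesterol synthesis enzymes, targets of the protein that Srebf2 encodes, gave 2 rises and no fall among 20 tested members, Hsd17b7 (1.66 ± 0.37) and Nsdhl (0.81 ± 0.20). That is 10%, near the 8.14% of all tested genes. Hsd17b7 stood at 1.02 without spleen WT replicate 2 and 2.31 without replicate 3, and its call was lost without VAT WT replicate 1. The Nsdhl call was lost with weights per library, without spleen WT replicate 2 and without any 1 VAT library.

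Ribosomal protein genes had a median difference of -0.89, with 16 of 27 called lower and none higher. They took 1.42% to 1.69% of summed RPKM in VAT WT libraries and 2.19% and 3.46% in spleen WT. The spleen libraries thus lay far apart, and the count of calls was 27 without spleen WT replicate 3, 4 without spleen WT replicate 2, and 0 or 1 without any 1 VAT library. In KO 25 of 27 were called lower, beside 11% of all tested genes in KO. Of 32 oxidative phosphorylation genes 1 fell, Ndufa4 (-1.54 ± 0.29), or 3.12% beside 9.01% of all tested genes. The median was -0.45, or -0.12 without spleen WT replicate 2 and -0.82 without replicate 3. Of 24 proliferation genes 1 fell, Mcm6 (-0.69 ± 0.19), or 4.17%, with a median of -0.36. That call was lost after quantile normalization, after median-ratio scaling, with weights per library, with the replicate block and without any 1 VAT library. Mki67 was not called (0.78 ± 0.37). Among 18 glycolysis genes the glucose transporter Slc2a3 rose (1.32 ± 0.17) and none fell, and the median was -0.05, or 0.10 after median-ratio scaling.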
